A study of Mus musculus with 8 samples.

Results

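The integrin and laminin chain genes of the mouse kidney were followed across 4 groups of lectin-selected kidney cells. The rows of the count table were taken whose symbol names an integrin alpha chain (Itga), an integrin beta chain (Itgb) or a laminin chain (Lama, Lamb, Lamc) and that held 10 or more counts in at least 2 libraries. Of 36 rows with such a symbol, among 55304 genes in the table, 35 met this minimum: 24 integrin and 11 laminin chains. Itgad was the row that did not. Of the 35 chains, 34 passed the low-count filter of the statistical fit, and Itgae, with under 1 CPM in every library (CPM is the read count scaled to library size), was not tested. Itga11 reached 10 counts only in the 4 ADPKD libraries, so it entered through the groups where it is high. Itgax reached 10 counts in both libraries of a group only in the ADPKD groups, and in 1 library of each WT group.

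By the labels, cells were collected from mouse kidney by binding to the lectin of Dolichos biflorus (DBA), a common handle for cells of the collecting duct. The submitters' extraction protocol mentions whole kidney beside DBA-positive cells. Mice of 2 genotypes were used, wild type (WT) and one labelled ADPKD (the dominantly inherited form of polycystic kidney disease), in which kidney tubules widen into cysts. The labels do not name the altered gene, the promoter or cell type that drives the alteration, the strain, or the sex of the animals. Each genotype was given either DMSO as vehicle or 666-15, a small molecule against the cAMP-responsive transcription factor CREB, with a daily dose of 5 mg/kg in cycles of 5 dosing days and 2 rest days, from postnatal day 11 for 3 weeks. Each of the 4 groups (WT with vehicle, WT with 666-15, ADPKD with vehicle, ADPKD with 666-15) had 2 libraries, 8 in all. Whether both libraries of a group stem from different mice is not stated, so the p-values measure only the spread between these libraries, which may be technical.

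Laminins are the trimers (one alpha, one beta and one gamma chain) that form the sheet of the basement membrane on which tubule cells rest. Integrins are pairs of one alpha and one beta chain that span the cell membrane and bind laminins, collagens, fibronectin or the latent form of TGF-beta outside the cell, and the cytoskeleton inside it. The collecting duct epithelium holds the laminin with the alpha5 chain and the laminin receptors with the alpha3 and alpha6 chains, and the laminin with the alpha3 and beta3 chains is best known from the basement membrane of skin, where integrin alpha6 beta4 anchors hemidesmosomes to it.

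CREB binds the palindrome TGACGTCA and its half-site TGACG, so the promoters of the chains were read for these letters and for the AP-1 site TGANTCA, on both strands. The windows ran from 250 bases before to 50 bases after the gene start, as RefSeq gives them for build GRCm38.p6, and 22 of the 35 chains had such a window. None of the 22 held the palindrome, which 2.03% of 27025 genes held. The half-site stood in 5 of the 22 (22.7%, against 23.0% of all genes): Itga9, Itgb1, Itgb6, Lama5 and Lamb2. The AP-1 letters stood in 3 of the 22 (13.6%, against 8.97% of all genes): Itga3, Itga9 and Itgax. The half-site is part of the palindrome and cannot lie within the AP-1 letters. Of the chains with a half-site before the gene start, Lama5, Itgb6 and Itgb1 are shown, since they are the most abundant of them, with the half-site in capitals. They lie at chr2:180225860-180225979 (minus strand), chr2:60722604-60722763 (minus strand) and chr8:128685534-128685653 (plus strand).
Lama5: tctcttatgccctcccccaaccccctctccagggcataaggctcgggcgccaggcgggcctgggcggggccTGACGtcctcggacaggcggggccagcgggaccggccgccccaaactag
Itgb6: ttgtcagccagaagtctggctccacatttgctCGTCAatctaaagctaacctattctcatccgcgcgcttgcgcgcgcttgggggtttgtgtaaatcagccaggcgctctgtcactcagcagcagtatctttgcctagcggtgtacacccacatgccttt
Itgb1: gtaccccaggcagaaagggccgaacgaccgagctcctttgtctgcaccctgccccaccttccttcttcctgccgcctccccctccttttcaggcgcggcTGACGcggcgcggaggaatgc
The capitals in Itgb6 are the half-site read on the other strand.

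For contrast, 3 chains whose RNA differed widely between the genotypes, Itga2, Lamb3 and Itgb8, had windows that held neither the half-site nor the AP-1 letters. The 120 bases before their starts lie at chr13:114932101-114932220 (minus strand), chr1:193301874-193301993 (plus strand) and chr12:119238277-119238396 (minus strand).
Itga2: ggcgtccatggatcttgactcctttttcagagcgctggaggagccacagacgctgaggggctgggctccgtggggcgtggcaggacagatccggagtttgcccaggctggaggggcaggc
Lamb3: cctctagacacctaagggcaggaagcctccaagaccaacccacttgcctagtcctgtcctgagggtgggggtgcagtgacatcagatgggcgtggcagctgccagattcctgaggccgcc
Itgb8: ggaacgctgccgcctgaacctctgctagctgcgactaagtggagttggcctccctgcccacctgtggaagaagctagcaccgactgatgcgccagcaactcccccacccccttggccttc
A match of letters is a description of the sequence, and its absence from these windows says nothing about binding elsewhere.

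The libraries held 15108793 to 19702638 counts. The second WT library with 666-15 stood apart in sex-linked RNA, with 17688 Xist counts and 0 Ddx3y counts, whereas the other 7 held at most 8 Xist and at least 1776 Ddx3y counts. The summed markers of the nephron segments differed between groups. The 16 collecting duct markers took 0.401% to 0.441% of counts in the WT vehicle libraries and 1.11% to 1.21% in the other 3 groups. Krt8, Krt18 and Krt7, keratins of simple epithelia, made up most of this sum in the ADPKD libraries, and the list did not move as one. By the edgeR test used below, with vehicle 9 of 15 tested were higher and 4 lower in ADPKD than in WT cells. With 666-15 in both genotypes 3 were higher and 10 lower. Over all genes, 28.8% were higher and 27.6% lower with vehicle, and 21.8% higher and 24.5% lower with 666-15. Hsd11b2, which shields principal cells from glucocorticoids, went from 247.8 and 334.8 CPM in WT to 107.3 and 127.1 CPM in ADPKD cells with vehicle. Aqp2, Aqp3, Scnn1a, Scnn1b and Scnn1g lay higher in ADPKD cells instead. Aqp3 went from 244 and 301.7 CPM to 686.1 and 494.3 CPM, and Scnn1g from 52.8 and 72.2 CPM to 128 and 122.5 CPM. The 12 proximal tubule markers took 1.46% to 1.66% in the WT vehicle libraries, 0.575% to 0.592% in WT with 666-15, and at most 0.0395% in the ADPKD libraries. The WT vehicle libraries, labelled as DBA-positive cells, thus held a larger share of counts from the proximal tubule list than from the collecting duct list. In bulk RNA of this kind, fewer cells of a type and less RNA per cell cannot be told apart, and this holds for every value below.

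**Figure D1:**
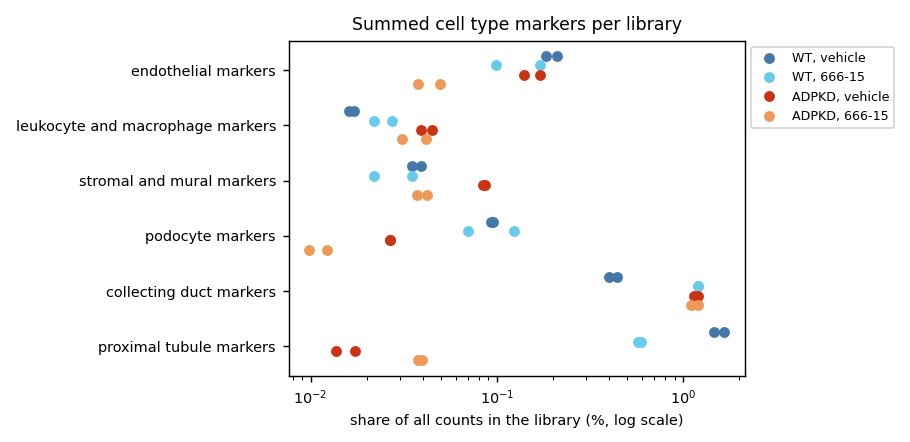
Share of each library's counts taken by 6 lists of cell type markers (x axis, percent, log scale), with 2 libraries for each of the 4 groups as points. Proximal tubule markers fall from 1.46% to 1.66% in the WT vehicle libraries to 0.0137% to 0.0174% in the ADPKD vehicle libraries, and endothelial markers are lowest in ADPKD with 666-15, at 0.0377% to 0.0496%.

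**Figure D2:**
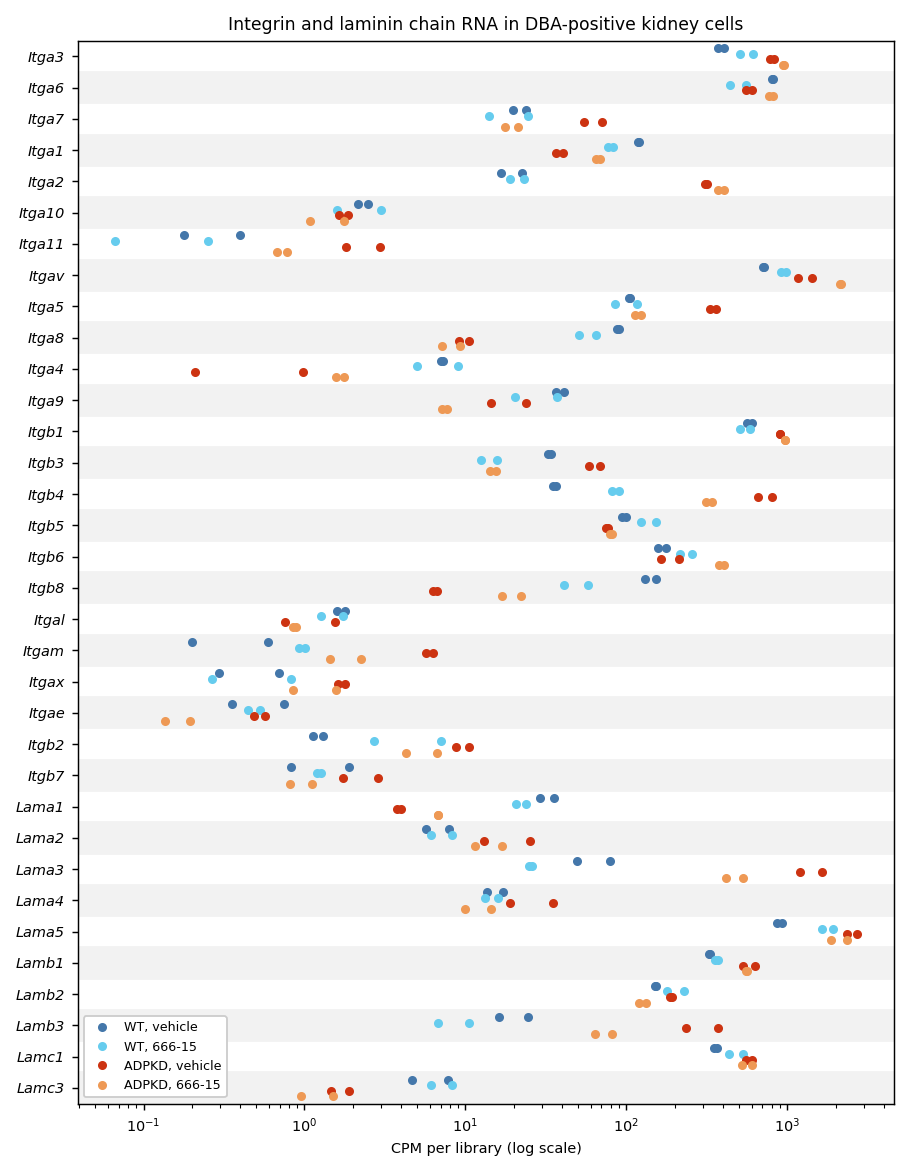
CPM of 34 integrin and laminin chains (x axis, log scale), with 1 point per library and the 4 groups in colours. Lama5, Lama3 and Itgav reach above 1000 CPM in ADPKD libraries, whereas Itga10, Itga11, Itgal, Itgax, Itgae and Itgb7 stay under 3 CPM in all 8 libraries.

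With vehicle, most of the chains differed between ADPKD and WT cells, and alpha3 and beta3 laminin chains and some of the receptor chains differed most. Itgb4, Lama3, Itga2 and Lamb3 were 14.8 to 22.2 times higher in ADPKD cells, and Itgb8 was 21.7 times lower. By edgeR's quasi-likelihood test with Benjamini-Hochberg adjustment at 0.05, 21 of the 34 tested chains were higher in ADPKD cells and 9 were lower. The 21 include Itga11, which entered through the groups where it is high. The test called 56.4% of all 17440 genes here (28.8% higher, 27.6% lower), so a high count of calls is common to the whole table. The median log2 fold change was 0.80 over the 34 chains and 0.05 over all genes tested.

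All 11 laminin chains passed the test, 9 higher and 2 lower. Among the alpha chains, Lama5, the main laminin alpha chain of mature tubules, stood at 858 and 929 CPM in WT and at 2720 and 2337 CPM in ADPKD cells. It was 2.83 times higher (log2 fold change 1.5 ± 0.13 SE, edgeR adjusted p = 6.54e-07). Lama3 stood at 78.8 and 49.0 CPM in WT and at 1634 and 1207 CPM in ADPKD cells. The groups lay far apart, with a log2 fold change of 4.47 ± 0.28 (SE, edgeR adjusted p = 7.89e-06). Lama1, the alpha chain of the embryonic nephron and of mature proximal tubule basement membrane, moved the other way, from 29.1 and 35.4 CPM to 3.995 and 3.75 CPM (fell by 3.06 ± 0.19 SE on the log2 scale, edgeR adjusted p = 2.42e-08). Proximal tubule markers were lower in the same libraries, 12 of 12 by the test (27.6% of all genes were lower). Their part in the Lama1 difference was not tested.

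The alpha chains of mesenchyme and vessels were less abundant. Lama2 was at 7.92 and 5.73 CPM in WT and at 13.1 and 25.2 CPM in ADPKD cells, a log2 fold change of 1.48 that was 0.91 without the second ADPKD vehicle library. Lama4, a laminin chain of blood vessels, was at 17.2 and 13.6 CPM against 18.8 and 34.9 CPM. Its log2 fold change of 0.80 (edgeR adjusted p = 0.0334) was 0.27 without that same library and 0.62 without the second WT vehicle library, and the call was lost in both fits. It was lost in a fit of the 2 compared groups alone as well (0.72, edgeR adjusted p = 0.0896). Markers of stromal and mural cells took 0.0348% to 0.039% of counts in WT and 0.084% to 0.0863% in ADPKD vehicle libraries, with 7 of 12 higher and 1 lower. Endothelial markers took 0.183% to 0.21% in WT and 0.14% to 0.171% in ADPKD vehicle libraries, with 1 of 14 higher and 2 lower. Over all genes, 28.8% were higher and 27.6% lower. The part of both lists in these values was not tested.

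Among the beta and gamma chains, Lamb3 rose from 24.6 and 16.1 CPM to 369.8 and 235.1 CPM (log2 fold change 3.89 ± 0.35 SE, edgeR adjusted p = 0.000132). Lamb1 and Lamc1, the chains of the common laminins, rose by less. Lamb1 went from 331.7 and 325.6 CPM to 625.7 and 528.3 CPM (log2 fold change 0.81 ± 0.10 SE, edgeR adjusted p = 1.38e-05). Lamc1 went from 349.6 and 364.7 CPM to 605.1 and 554.5 CPM (log2 fold change 0.70 ± 0.11 SE, adjusted p = 0.000174). Lamb2, the beta chain of the glomerular basement membrane, differed little, with 150.9 and 153 CPM against 193.1 and 185.7 CPM. Its log2 fold change of 0.32 became 0.11 once the trend with GC content was removed (edgeR adjusted p = 0.325). The call was lost with DESeq2 as well (0.27, adjusted p = 0.0945). Lamc3 was lower in ADPKD cells, from 7.77 and 4.67 CPM to 1.45 and 1.90 CPM.

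The laminin receptors did not move as one. Itgb4, which pairs only with the alpha6 chain and carries the long tail that binds plectin, rose from 36.6 and 35.2 CPM to 806.4 and 653.2 CPM. No other integrin chain rose more here (log2 fold change 4.34 ± 0.13 SE, edgeR adjusted p = 4.63e-11). Its partner Itga6 fell, from 801.2 and 818.6 CPM to 600.0 and 550.6 CPM (log2 fold change -0.49 ± 0.11 SE, adjusted p = 0.00205). Per kilobase of transcript, Itga6 stood 31.5 and 33.5 times above Itgb4 in the WT vehicle libraries and 1.07 and 1.21 times in the ADPKD vehicle libraries. Itga3, the alpha chain of the other main epithelial laminin receptor, rose from 403.2 and 371.4 CPM to 820.7 and 782.1 CPM (log2 fold change 1.05, adjusted p = 2.21e-06). Itga7, the laminin receptor chain of muscle, rose from 23.9 and 19.8 CPM to 70.8 and 54.3 CPM (log2 fold change 1.52, adjusted p = 0.000304). Part of the Itgb4 exons, 537 bases, overlaps a non-coding gene on the other strand, and whether the counting used strand is not stated in the sources at hand.

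The 2 main collagen-binding chains changed places. Itga1 fell from 120.4 and 117.6 CPM to 36.6 and 40.2 CPM (log2 fold change -1.63 ± 0.11 SE, edgeR adjusted p = 4.2e-08). Itga2, the collagen receptor chain of epithelia and platelets, rose from 22.5 and 16.7 CPM to 306.7 and 315 CPM (log2 fold change 3.98 ± 0.15 SE, adjusted p = 3.71e-10). Per kilobase, Itga2 RNA stood at 0.288 and 0.219 of Itga1 RNA in the WT vehicle libraries and at 12.9 and 12.1 times Itga1 RNA in the ADPKD ones. The remaining pair of this class stayed low: Itga11 was at 0.398 and 0.177 CPM in WT and at 1.82 and 2.93 CPM in ADPKD cells, and Itga10, between 1.09 and 2.98 CPM, passed the test in none of the 5 comparisons.

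Chains that bind the RGD tripeptide of fibronectin, vitronectin or latent TGF-beta also split. Itga5, the fibronectin receptor chain, rose from 105.3 and 103.5 CPM to 359.6 and 332.3 CPM (log2 fold change 1.73 ± 0.13 SE, edgeR adjusted p = 2.7e-07). Itgav, the common partner of 5 beta chains, rose from 708.3 and 719.4 CPM to 1159 and 1432 CPM (log2 fold change 0.86, adjusted p = 1.62e-05). Itga8, the nephronectin receptor chain of kidney mesenchyme and mesangium, fell from 89.95 and 87.1 CPM to 9.18 and 10.6 CPM (log2 fold change -3.16 ± 0.17 SE, adjusted p = 5.54e-09). Podocyte markers took 0.093% to 0.0952% of counts in these WT libraries and 0.0267% in the ADPKD ones. Stromal and mural markers went the other way, from 0.0348% to 0.039% in WT to 0.084% to 0.0863% in ADPKD libraries. Of these, 7 of 12 were higher and 1 lower, beside 28.8% and 27.6% of all genes. The part of both marker lists in the Itga8 difference was not tested.

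The beta chains that pair with alphaV differed among themselves. Itgb8, which holds latent TGF-beta, fell from 130.1 and 151.7 CPM to 6.69 and 6.30 CPM (log2 fold change -4.44 ± 0.20 SE, edgeR adjusted p = 5.79e-09). Itgb6, the epithelial chain that activates latent TGF-beta, did not pass the test, at 157.9 and 177.4 CPM against 163.1 and 211.3 CPM, with overlapping groups. Itgb3, the vitronectin receptor chain, rose from 34.2 and 32.4 CPM to 58.8 and 68.7 CPM (log2 fold change 0.94, adjusted p = 9.86e-05). Itgb1, the partner of most alpha chains, rose from 599.5 and 557.6 CPM to 906.8 and 896 CPM (log2 fold change 0.64, adjusted p = 8.61e-05). Itgb5 went from 94.4 and 99.3 CPM to 74.5 and 76.3 CPM, a log2 fold change of -0.36 that missed the threshold without the second WT vehicle library (adjusted p = 0.0778) or without the first ADPKD vehicle library (adjusted p = 0.0627).

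Integrin chains of leukocytes were low in all libraries. Itgb2, the common beta chain of leukocytes, was at 1.30 and 1.12 CPM in WT and at 8.77 and 10.6 CPM in the ADPKD libraries (log2 fold change 2.99 ± 0.43 SE, edgeR adjusted p = 9.43e-05). Itgam, the alpha chain of monocytes and macrophages, was at 0.199 and 0.591 CPM against 6.28 and 5.70 CPM (log2 fold change 3.94, adjusted p = 1.53e-05). The 16 leukocyte and macrophage markers took 0.016% to 0.0171% of counts in these WT libraries, where Cd3e was at 0 counts. They took 0.0393% to 0.0451% in the ADPKD ones, with 11 of 15 tested higher and 1 lower (28.8% and 27.6% of all genes). Their part in the 2 chains' differences was not tested. Itgax, under 2 CPM, passed here (log2 fold change 1.74, adjusted p = 0.0365) but not with DESeq2 (adjusted p = 0.0938), and Itgal and Itgb7, also under 3 CPM, passed in none of the 5 comparisons.

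Itga4 and Itga9, chains of receptors for VCAM1 and tenascin, were both lower in ADPKD cells. Itga9 stood at 40.7 and 36.7 CPM against 14.3 and 23.8 CPM (log2 fold change -1.02), and the call was lost without the first WT (adjusted p = 0.0754) or the first ADPKD vehicle library (adjusted p = 0.0789). Itga4 stood at 7.27 and 7.09 CPM against 0.208 and 0.977 CPM (log2 fold change -3.60 ± 0.51 SE, adjusted p = 6.47e-05). Itga4 shares 1124 exonic bases with Cerkl, as Itgam shares 3450 with Gm49368, so reads there may be divided between genes.

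**Figure D3:**
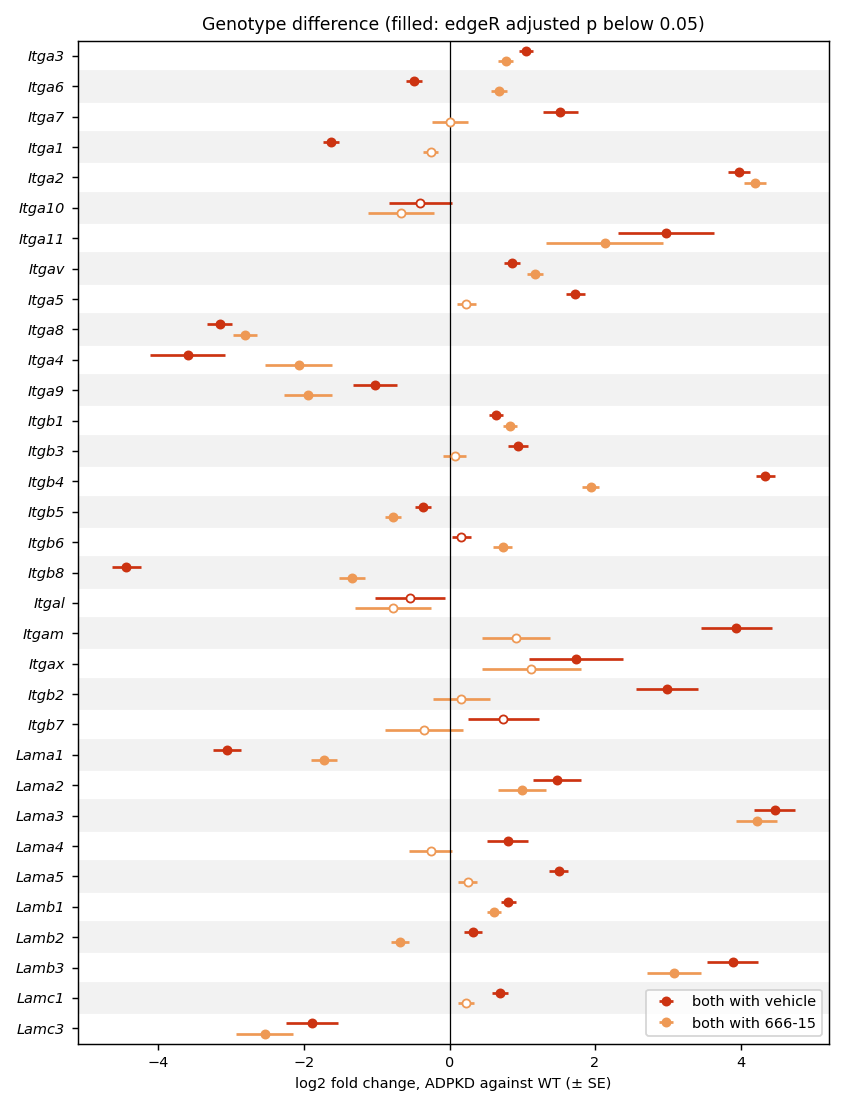
Log2 fold change of ADPKD against WT for 33 of the tested chains (x axis), with both groups on vehicle and with both groups on 666-15, and bars of ± 1 SE. Filled points passed edgeR's test: 29 of these chains with vehicle and 20 with 666-15. Itgb4 moves from 4.34 to 1.94, while Itga2 (3.98 and 4.20) and Lama3 (4.47 and 4.22) stay near their values.

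In ADPKD cells, 666-15 went with lower RNA of several chains that were high in these cells, among them Itgb3, Lamb3, Itga7, Lama3, Itga5 and Itgb4, which were 2.22 to 4.3 times lower than with vehicle. Itgb8, Itgb6, Itga1, Itgav, Itga6 and Lama1 were higher. In all, 6 of the 34 chains rose and 11 fell by edgeR's test, beside 41.4% of all genes called (22.3% higher, 19.1% lower). The 11 include Itga11 (-1.69), which missed the threshold with DESeq2 (-1.70, adjusted p = 0.109). The median log2 fold change was -0.36 over the 34 chains and 0.02 over all genes.

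Of the 11 laminin chains, 1 rose and 4 fell. Lama3 fell to 530.5 and 417.8 CPM (log2 fold change -1.58 ± 0.25 SE, edgeR adjusted p = 0.00212) and Lamb3 to 81.8 and 64.1 CPM (-2.05 ± 0.32 SE, adjusted p = 0.00317). Both still lay above every WT library. Lama5 at 2352 and 1879 CPM, Lamb1 at 560.4 and 550.9 CPM and Lamc1 at 602.8 and 520.7 CPM overlapped with their vehicle values, as did Lama2 at 16.8 and 11.5 CPM and Lamc3 at 1.5 and 0.95 CPM. Of these, Lama5 (-0.26) passed after removal of the length trend (-0.55, adjusted p = 0.00569) and without the first treated library (-0.41, adjusted p = 0.0456), and Lama2 (-0.43) passed without the first ADPKD vehicle library (-0.83, adjusted p = 0.035). Lamb2 stood at 132.8 and 119.1 CPM (log2 fold change -0.59), and this call was lost with the GC trend removed (-0.13, adjusted p = 0.29). Lama1 was at 6.77 and 6.72 CPM, 1.74 times higher, a call that was lost with the trend in transcript length removed (adjusted p = 0.0577). Lama4, at 14.5 and 9.98 CPM (log2 fold change -1.13, adjusted p = 0.01), missed the threshold without the second ADPKD vehicle library (-0.61, adjusted p = 0.0751) or without the second treated one (-0.88, adjusted p = 0.101).

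Among the integrin chains, Itgb3 fell furthest, to 15.5 and 14.1 CPM (log2 fold change -2.10 ± 0.15 SE, edgeR adjusted p = 1.27e-06). Itga7 fell to 21.1 and 17.7 CPM (-1.69 ± 0.24 SE, adjusted p = 0.00037), and Itga5 to 122.4 and 112.9 CPM (-1.56 ± 0.13 SE, adjusted p = 5.18e-06). Treated ADPKD libraries overlapped with WT vehicle libraries for Itga7 but lay just above them for Itga5. Itgb4 fell to 342.6 and 313.6 CPM (-1.15 ± 0.11 SE, adjusted p = 9.86e-06), or by less (-0.61) after removal of the GC trend. Itga9 stood at 7.16 and 7.67 CPM (log2 fold change -1.36), without passing the test when either treated library was left out (adjusted p = 0.0834 and 0.0701). Endothelial markers took 0.14% to 0.171% of counts with vehicle and 0.0377% to 0.0496% with 666-15, 14 of 14 lower. Stromal and mural markers fell too, 6 of 12, beside 19.1% of all genes lower. The part of these markers in the chains' lower values was not tested.

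The chains that rose were led by Itgb8, at 22.1 and 16.8 CPM (log2 fold change 1.58 ± 0.20 SE, edgeR adjusted p = 9.68e-05), still below every WT library. Itgb6 rose to 378 and 403.4 CPM (1.06 ± 0.13 SE, adjusted p = 6.9e-05), above all libraries of the other 3 groups. Its partner Itgav rose to 2110 and 2150 CPM (0.72 ± 0.11 SE, adjusted p = 0.000199; once the GC trend was removed, 0.43). Itga1 rose to 68.6 and 64.3 CPM (log2 fold change 0.79, and 0.48 or 0.51 with the GC or the length trend removed). Itga6 rose to 812.3 and 768.6 CPM (0.46 ± 0.11 SE, adjusted p = 0.00546). Itga2 at 401.5 and 372.8 CPM and Itga3 at 954.7 and 945.9 CPM did not pass (adjusted p = 0.0608 and 0.0738), although neither overlapped with its vehicle group. Itga2 passed at about the same fold change with no low-count filter (0.35, adjusted p = 0.00823) and without either WT vehicle library (0.33 each). Itga3 passed with no low-count filter (0.28 against 0.25, adjusted p = 0.023) and after removal of the GC trend (0.65, adjusted p = 0.000108). Itga8 was at 9.24 and 7.13 CPM, overlapping with vehicle (log2 fold change -0.27), and passed at -0.54 after removal of the GC trend (adjusted p = 0.036). Itgb1 at 967.1 and 961 CPM and Itgb5 at 79.5 and 81.7 CPM did not pass either, with log2 fold changes of 0.10 each, but Itgb5 passed at 0.45 after removal of the GC trend (adjusted p = 0.00229). Of the leukocyte chains, Itgam went to 1.43 and 2.24 CPM (log2 fold change -1.70, adjusted p = 0.00506). Its call was lost without the first treated library (-1.40). Itgb2 at 4.30 and 6.65 CPM did not pass (-0.82, adjusted p = 0.103). It passed at a similar fold change with no low-count filter (-0.79, adjusted p = 0.0354) and in a fit of the 2 compared groups alone (-0.85, adjusted p = 0.0224).

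In WT cells, the abundant epithelial laminin chain Lama5 was 1.99 times higher with 666-15 than with vehicle, and Itgb4 was 2.38 times higher. Itgb8, Itgb3 and Itga6 were 2.85, 2.36 and 1.64 times lower. Of the 34 chains, 10 rose and 7 fell, beside 25.5% of all genes called (13.9% higher, 11.6% lower). The median log2 fold change was -0.03 over the chains and -0.01 over all genes. Without the first WT vehicle library 10 chains were called, beside 2402 of 18650 genes, and without the second WT 666-15 library, the one that stood apart in Xist, 11 chains, beside 3781 of 18746 genes. In the full fit 4448 of 17440 genes were called. Collecting duct markers took 1.2% to 1.21% of counts here against 0.401% to 0.441% with vehicle, with 15 of 15 tested higher, and 9 of 12 proximal tubule markers were lower. Their part in the changes of the chains in WT cells was not tested.

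Lama5 rose to 1919 and 1640 CPM (log2 fold change 0.99 ± 0.13 SE, edgeR adjusted p = 0.000103), with no overlap with vehicle. Lamc1 at 530.8 and 434.8 CPM and Lamb2 at 226.5 and 178 CPM had log2 fold changes of 0.43 and 0.41, and both calls were lost when single libraries were left out: without the first WT 666-15 library they were 0.28 (adjusted p = 0.0879) and 0.23 (adjusted p = 0.146). Lama3 fell to 24.8 and 26.0 CPM (-1.33 ± 0.26 SE, adjusted p = 0.00981), but not past the threshold without the first (adjusted p = 0.125) or the second WT 666-15 library (adjusted p = 0.133). Lamb3 stood at 10.5 and 6.71 CPM, below both vehicle libraries, and missed the threshold in this fit (-1.25 ± 0.37 SE, adjusted p = 0.0552). It passed at a similar fold change with DESeq2 (-1.30, adjusted p = 0.00745), with relative log expression scaling (-1.31, adjusted p = 0.0455) and without edgeR's robust option (adjusted p = 0.00849). Lama1, at 23.8 and 20.6 CPM, had a log2 fold change of -0.54 whose call was lost without either WT vehicle library (adjusted p = 0.0587 and 0.288) or without the second WT 666-15 library (adjusted p = 0.14). Lamb1 at 355.6 and 370.8 CPM, Lama2 at 8.22 and 6.07 CPM, Lama4 at 15.9 and 13.3 CPM and Lamc3 at 8.28 and 6.07 CPM did not pass.

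Of the integrin chains in WT cells, Itgb8 fell to 40.8 and 58.1 CPM (log2 fold change -1.51 ± 0.17 SE, edgeR adjusted p = 6.59e-05) and Itgb3 to 15.6 and 12.5 CPM (-1.24 ± 0.15 SE, adjusted p = 6.44e-05). Itga6 fell to 437.3 and 551.7 CPM (-0.71 ± 0.11 SE, adjusted p = 0.000447) and Itga1 to 76.6 and 83.0 CPM (-0.58 ± 0.10 SE, adjusted p = 0.00116). Itgb4 rose to 81.4 and 89.8 CPM (1.25 ± 0.12 SE, adjusted p = 9e-06), which is still below every ADPKD library. Itga3 rose to 611.6 and 506.4 CPM (0.53 ± 0.10 SE, adjusted p = 0.00223). Itgav at 911.2 and 987 CPM, Itgb5 at 152 and 122.8 CPM and Itgb6 at 214.1 and 256.7 CPM were higher as well, with log2 fold changes of 0.41, 0.50 and 0.49. All 3 calls were lost without the first WT vehicle library (adjusted p = 0.0913, 0.0644 and 0.152). Itga8, at 64.5 and 50.7 CPM (log2 fold change -0.62), lost its call without that library too (adjusted p = 0.0601). Itgb2 was at 2.72 and 7.02 CPM, and its log2 fold change of 2.00 was 1.15 (adjusted p = 0.0649) without the second, Xist-positive library. Leukocyte markers took 0.0219% to 0.0275% of counts here, against 0.016% to 0.0171% with vehicle. Itga2 at 19.0 and 23.0 CPM, Itga5 at 116.4 and 84.4 CPM, Itga7 at 24.5 and 14.0 CPM, Itga9 at 36.8 and 20.2 CPM and Itgb1 at 582.6 and 504.5 CPM overlapped with vehicle. Itga7 (-0.64, adjusted p = 0.0408) and Itga9 (-0.94, adjusted p = 0.0253) passed without the first WT 666-15 library.

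The response to 666-15 was compared between the genotypes by the interaction term, the log2 fold change in ADPKD cells minus that in WT cells. It passed for 15 of the 34 chains, 5 positive and 10 negative, beside 26.6% of all genes (13.6% positive, 13% negative). The same term tests whether the genotype difference with 666-15 differs from that with vehicle. The terms with the smallest p-values included Itgb8 (3.09 ± 0.26 SE, edgeR adjusted p = 1.68e-05), which rose in ADPKD and fell in WT cells, and Itgb4 (-2.41 ± 0.16 SE, adjusted p = 2.34e-06), which did the reverse. Itga1 (1.37), Itga6 (1.17) and Lama1 (1.34) rose in ADPKD and fell in WT cells, and Lamb2 (-1.0) fell in ADPKD and rose in WT cells, each passing the test in both genotypes and for the interaction. With the GC trend removed the Lamb2 term was -0.47. Lama5 (-1.25, and -0.67 with the GC trend removed) rose in WT cells and did not pass in ADPKD cells. Itga5 (-1.5) and Itga7 (-1.51) fell in ADPKD cells and did not pass in WT cells. The low-abundance leukocyte chains Itgam (-3.03, adjusted p = 0.00608) and Itgb2 (-2.83, adjusted p = 0.00427) had larger terms than Itgb4. The terms of Itgb3 (-0.86) and Itgb6 (0.57) passed although both genotypes moved the same way. That of Itgb6 was lost after removal of the GC trend (0.38, adjusted p = 0.119) and without any one of 5 libraries: the second WT vehicle, the first WT 666-15, the first ADPKD vehicle and either ADPKD 666-15 library (adjusted p = 0.0782 to 0.132). That of Itgb3 was lost without the second ADPKD 666-15 library (-0.79, adjusted p = 0.0555).

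Lama3 and Lamb3 did not pass the interaction (-0.25 ± 0.35 SE, adjusted p = 0.661, and -0.80 ± 0.48 SE, adjusted p = 0.284). Called chains of the 2 genotypes overlapped in part. Of the 17 chains called in each genotype, 10 were called in both: Itgav, Itgb3, Itgb6 and Lama3 in the same direction (23.5% of each list), and Itga1, Itga6, Itgb4, Itgb8, Lama1 and Lamb2 in opposite directions. Over all genes, 41.4% were called in ADPKD and 25.5% in WT cells. Their overlap over all genes was not counted, so the overlap of the chains cannot be called particular to them. These 2 comparisons share no library, but both come from the same fit with a shared estimate of the spread.

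**Figure D4:**
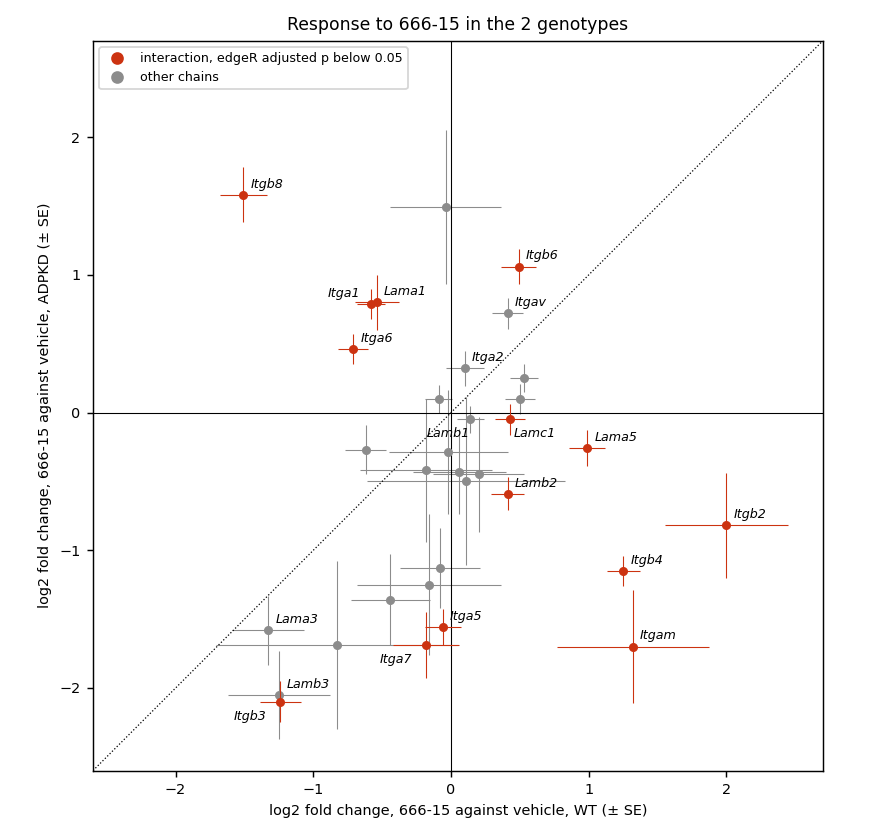
Log2 fold change of 666-15 against vehicle in WT cells (x axis) and in ADPKD cells (y axis) for 33 of the tested chains, with bars of ± 1 SE and a dotted line of equal response. The 14 of them that passed the interaction test are coloured: Itgb8 lies at -1.51 and 1.58, Itgb4 at 1.25 and -1.15, while Lama3 lies close to the line at -1.33 and -1.58.

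With 666-15 in both genotypes, the genotype difference remained for Itga2, Lama3, Lamb3 and Itgb4 and was smaller for Itgb4. Of the 34 chains, 12 were higher in ADPKD cells and 8 were lower, beside 46.3% of all genes called (21.8% higher, 24.5% lower). The 12 include Itga11 (2.13), which entered through the ADPKD groups and missed the threshold with DESeq2 (2.19, adjusted p = 0.084). They also include Lama2 (0.99), whose call was lost with the length trend removed (0.78, edgeR adjusted p = 0.0749). The median log2 fold change was 0.19 over the chains and -0.03 over all genes. Itga2 was 18.4 times higher (log2 fold change 4.20 ± 0.15 SE, edgeR adjusted p = 1.17e-09), Lama3 18.7 times (4.22 ± 0.28 SE, adjusted p = 2.23e-05), Lamb3 8.48 times (3.08 ± 0.37 SE, adjusted p = 0.000762) and Itgb4 3.83 times (1.94 ± 0.12 SE, adjusted p = 6.55e-08). Itga8 (-2.81), Lamc3 (-2.54), Lama1 (-1.72) and Itgb8 (-1.34) were lower.

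Lama5 and Lamc1 no longer passed (log2 fold changes 0.25 and 0.22), and neither did Itga5, Itga7, Itgb3, Itgam and Itgb2 (0.23, 0.01, 0.07, 0.91 and 0.16). Several of these depended on the processing: after removal of the GC trend Lama5 (0.58, edgeR adjusted p = 0.000746), Lamc1 (0.44, adjusted p = 0.00389) and Itga5 (0.52, adjusted p = 0.00154) passed. Lamc1 (0.37) and Itga5 (0.48) also passed without the first WT 666-15 library, Itgb2 (1.02, adjusted p = 0.0488) without the second, and Lama5 (0.40) without the second ADPKD 666-15 library. For these 7 chains the interaction term passed as well, and Lamc1 did so narrowly (adjusted p = 0.0427), with the call lost once the GC trend was removed (adjusted p = 0.24), with DESeq2 (adjusted p = 0.0671) and without any one of 6 of the 8 libraries. Itga6 (0.68) and Lamb2 (-0.68) were called in the direction opposite to that with vehicle. Of the 30 chains called with vehicle, 17 were called in the same direction with 666-15, which is 56.7% of the 30 and 85.0% of the 20. Over all genes, 56.4% were called with vehicle and 46.3% with 666-15. Their overlap over all genes was not counted, so the overlap of the chains cannot be called particular to them. No library is shared between these 2 comparisons, but both come from the same fit with a shared estimate of the spread.

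Levels of different chains were set side by side as CPM per kilobase of the longest annotated transcript. Summed over its chains, the laminin alpha family rose from 89.5 and 92.8 in the WT vehicle libraries to 399 and 328 in the ADPKD vehicle libraries, with 177 and 151 in WT and 262 and 208 in ADPKD cells with 666-15. Lama5 held 84.1% and 87.9% of this sum in WT vehicle libraries, 95.3% and 95.1% in WT with 666-15, 59.9% and 62.5% in ADPKD with vehicle and 78.9% and 79.3% in ADPKD with 666-15. Lama3 made up most of the remainder in ADPKD cells, at 38.9% and 34.8% with vehicle and at 19.2% and 19.0% with 666-15. In the beta family, the share of Lamb3 was 5.67% and 3.82% in WT and 34.8% and 28.0% in ADPKD vehicle libraries, and 12.2% and 10.2% in ADPKD cells with 666-15.

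Among the integrin beta chains, Itgb1 held 53.0% to 63.6% of the family's CPM per kilobase in every library. The second place differed. Itgb4 held it in the ADPKD vehicle libraries, with 29.6% and 24.8%. Itgb6 held it in the ADPKD 666-15 libraries (18.8% and 20.1%), in the WT vehicle libraries (13.3% and 15.2%) and in the second WT 666-15 library (21.4%). In the first WT 666-15 library Itgb5, at 17.4%, stood just above Itgb6, at 16.8%. Itgb8 went from 6.27% and 7.42% in the WT vehicle libraries to 0.181% and 0.177% in the ADPKD vehicle ones. Among the alpha chains, Itga6 led in the WT vehicle libraries with 42.6% and 44.0%, and Itgav led in 5 of the other 6 libraries with 31.0% to 39.6%. In the first ADPKD vehicle library Itga3, at 27.0%, stood just above Itgav, at 26.3%.

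**Figure D5:**
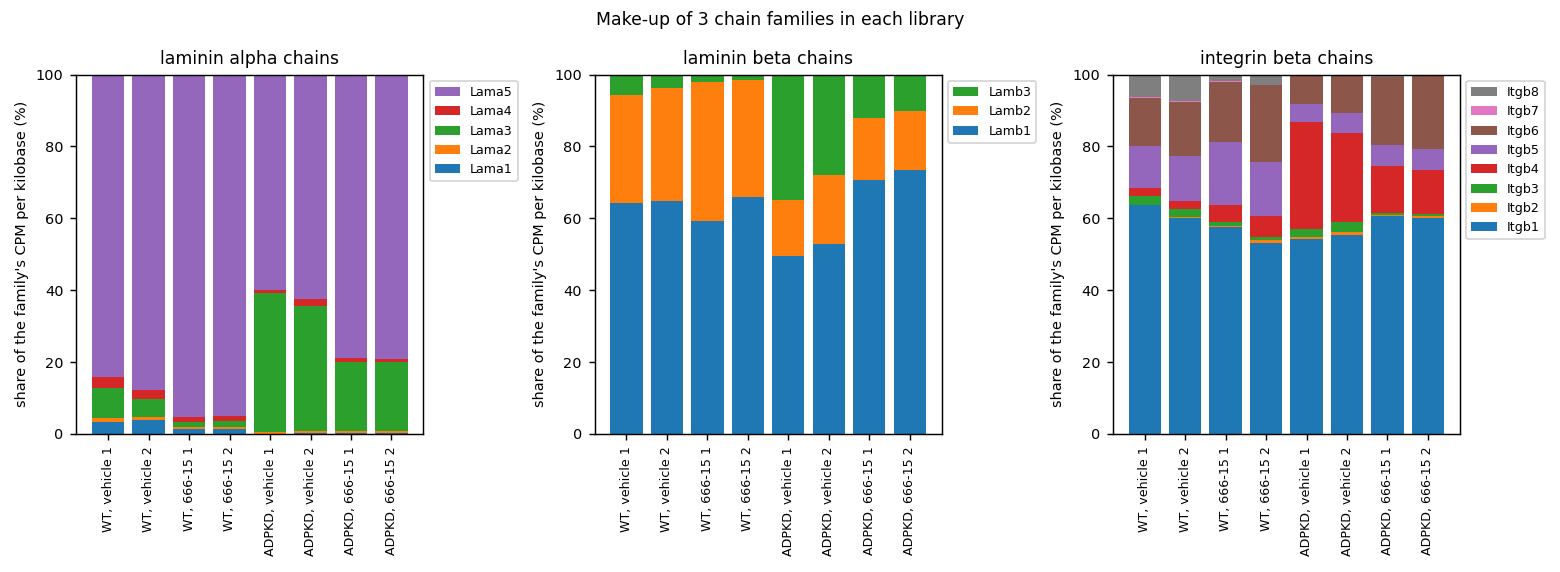
Share of each chain in the summed CPM per kilobase of its family (y axis, percent), for laminin alpha, laminin beta and integrin beta chains, with 1 bar per library. Lama3, Lamb3 and Itgb4 take 38.9%, 34.8% and 29.6% in the first ADPKD vehicle library and 8.34%, 5.67% and 2.39% in the first WT vehicle library.

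Other genes of the adhesion machinery were read from fixed lists. Their counts stand beside the shares of all genes called. These were 56.4% for ADPKD against WT with vehicle and 41.4% for 666-15 in ADPKD cells. They were 25.5% for 666-15 in WT cells and 46.3% for ADPKD against WT with 666-15. List shares below follow this order. Of 19 other basement membrane components, 7 were higher and 6 lower in ADPKD than in WT cells with vehicle. Nid1 and Nid2, the nidogens that link laminin to collagen IV, split: Nid1 went from 126.8 and 135 CPM to 469.2 and 425.7 CPM (log2 fold change 1.77), and Nid2 from 85.2 and 74.4 CPM to 13.1 and 14.6 CPM (-2.53). Col4a5, a collagen IV chain of the glomerular and distal tubule basement membrane, fell from 166.8 and 175.1 CPM to 48.3 and 48.9 CPM (-1.82) and with 666-15 rose to 130.2 and 129 CPM (1.42). Ntn4, a netrin that interferes with laminin assembly, rose with 666-15 from 26.2 and 31.6 CPM to 72.8 and 103.1 CPM in ADPKD cells (1.61). With 666-15, 6 of the 19 rose and 3 fell in ADPKD cells, and 5 rose and 2 fell in WT cells. With 666-15 in both genotypes, 8 were higher and 8 lower in ADPKD cells. The share of this list that was called was 68.4%, 47.4%, 36.8% and 84.2%.

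Of 19 tested ligands of integrins outside the laminins, 11 were higher and 3 lower in ADPKD cells with vehicle, and 1 rose and 5 fell with 666-15 in them. In WT cells 3 rose and 2 fell with 666-15, and with 666-15 in both genotypes 9 were higher and 4 lower. The share of this list that was called was 73.7%, 31.6%, 26.3% and 68.4%. For 666-15 in WT cells this is near the 25.5% of all genes, and in ADPKD cells it is below the 41.4%. Npnt, which encodes the nephronectin that Itga8 binds in the developing kidney, rose with 666-15 in ADPKD cells from 350.4 and 280.8 CPM to 912.9 and 916.3 CPM (log2 fold change 1.54) while Itga8 itself did not pass. Ccn2, a matrix protein bound by several integrins, went from 72.5 and 76.7 CPM in WT to 506.5 and 757 CPM in ADPKD cells with vehicle (3.08) and to 270 and 277.1 CPM with 666-15 (-1.21).

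Of 40 integrin activators and adhesion complex genes, 20 were higher and 8 lower in ADPKD cells with vehicle, and 6 rose and 15 fell with 666-15 in them. In WT cells 5 rose and 8 fell with 666-15, and with 666-15 in both genotypes 19 were higher and 7 lower. The share of this list that was called was 70%, 52.5%, 32.5% and 65%. Fermt1, the kindlin of epithelia that switches integrins on, rose from 36.5 and 35.6 CPM to 617.3 and 620.6 CPM (log2 fold change 4.10 ± 0.10 SE, edgeR adjusted p = 2.21e-11). With 666-15 it stood at 351.2 and 321.4 CPM in ADPKD cells (-0.88). Src, a kinase at adhesion sites, rose from 50.7 and 50.8 CPM to 267.8 and 282.2 CPM (2.44) and fell to 149 and 146.3 CPM with 666-15 (-0.90, and -0.41 with the GC trend removed). Tns1, which ties the integrin tail to actin, fell in ADPKD cells from 634.3 and 584.5 CPM to 271.3 and 254 CPM with 666-15 (-1.21).

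Of 10 other laminin receptors, 5 were higher and 2 lower in ADPKD cells with vehicle. With 666-15, 4 rose and 3 fell in ADPKD cells and 6 rose in WT cells, and with 666-15 in both genotypes 6 were higher and 1 lower. The share of this list that was called was 70%, 70%, 60% and 70%. Sdc1, a syndecan that binds laminin through its sugar chains, rose from 44.1 and 42.7 CPM to 199.6 and 190.5 CPM (log2 fold change 2.17) and fell to 123.6 and 112.1 CPM with 666-15 in ADPKD cells (-0.73, and -0.46 with the GC trend removed). Of the 5 hemidesmosome partners of integrin alpha6 beta4, 3 were higher and 1 lower in ADPKD cells with vehicle, and 3 rose and 1 fell with 666-15 in each genotype. This is 80% of a short list in each of these comparisons. With 666-15 in both genotypes, 2 were higher and 0 lower in ADPKD cells, which is 40% of the list against 46.3% of all genes.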

How the data were processed

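RNA labelled as from DBA-positive kidney cells was sequenced in 8 libraries, 2 in each of 4 groups. The extraction protocol mentions whole kidney as well, so the starting material is not fully settled by the labels. The deposited table holds whole-number counts per gene, not normalized. Per the submitters' processing notes, HISAT2 2.1.0, featureCounts 1.6.0 and DESeq2 were used with mm10. The annotation release, strand setting and treatment of multi-mapping reads are not given in the sources used here. Libraries were assigned by column name. The vehicle columns carry the genotype and number alone, and they were matched to the vehicle samples because the 666-15 columns name the drug.

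The count model was edgeR 4.0.16 under R 4.3.3: filterByExpr (minimum count 10, total 15), TMM scaling, 1 quasi-likelihood model over all 8 libraries with 4 group means, robust dispersion, and Benjamini-Hochberg adjustment over the 17440 genes tested, with 0.05 as the threshold. CPM values use TMM-scaled library sizes. Levels per kilobase use the longest transcript of GENCODE M21. DESeq2 1.42.0, relative log expression (RLE) scaling, other filters, a replicate block, removal of GC and length trends (lowess span 0.3) and leaving out each library were alternatives. The fit was tested on simulated data. With 2 libraries in a group, exact tests on ranks or on permuted group labels cannot pass the threshold, and precision comes from the spread shared across genes. One laminin chain entered the fit and the counts, and its values are not reported here. The members and gene lists were chosen with earlier results of these data known. Values in every library are given for chains that passed at least 1 comparison with a mean of 5 CPM or more, and for others of interest. From each other list, genes with the smallest p-values were named. Figures were drawn with matplotlib 3.10.9.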

Additional observations from a re-analysis of the deposited data

Results flagged for a closer look

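In 15 of the 34 tested chains the response to 666-15 differed between ADPKD and WT cells by the interaction term of the edgeR fit (log2 fold change in ADPKD minus that in WT cells, adjusted p below 0.05). The share of all genes that passed was 26.6%. Positive terms were found for Itgb8 (3.09), Itga1 (1.37), Lama1 (1.34), Itga6 (1.17) and Itgb6 (0.57). Negative terms included those of Itgam (-3.03), Itgb2 (-2.83), Itgb4 (-2.41), Itga7 (-1.51), Itga5 (-1.5), Lama5 (-1.25), Lamb2 (-1.0), Itgb3 (-0.86) and Lamc1 (-0.48). The terms of Itgam and Itgb2 rest on levels under 11 CPM. Of the 15 leukocyte and macrophage markers tested, 13 had a negative term and 2 a positive one. The test was passed by 7 of the negative terms and 0 of the positive ones. The term of Itgb6 was lost under 6 alternatives and that of Itgb3 without the second ADPKD 666-15 library. No group had the 4 libraries that a check for a single outlying library needs.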

How the results depend on the processing

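In the 5 comparisons, 99 calls of chains were made. Of these, 73 held under every alternative that could be fitted, 26 were lost under at least 1, and none reversed (94 of 1664 values lost the call). Calls that held everywhere were 25 of 30 for ADPKD against WT with vehicle, 11 of 17 for 666-15 in ADPKD cells, 8 of 17 for 666-15 in WT cells, 18 of 20 for ADPKD against WT with 666-15 and 11 of 15 for the interaction. When each library was left out in turn, the 5 counts ran from 26 to 29, 14 to 21, 10 to 18, 18 to 21 and 11 to 18, in the same order. For 666-15 in WT cells, 10 chains were called without the first WT vehicle library and 11 without the second WT 666-15 library, and the median of -0.03 over the chains became 0.13 and 0.11 there (from -0.20 to 0.13 over all libraries left out). A fit with a replicate block called 29, 17, 18, 19 and 16 chains, losing 3 calls and gaining 3: Itgb2 with 666-15 in ADPKD cells (-0.85, adjusted p = 0.0492), Lamb3 with 666-15 in WT cells (-1.24, adjusted p = 1.64e-05) and the Lamb3 interaction (-0.78, adjusted p = 0.00431). Over the genes as a whole, libraries with the same number did not deviate together (correlations from -0.0393 to 0.0862 over 11199 genes). This cannot exclude a shared litter, batch or day, which the labels do not give. Removing the GC trend lost 5 calls and gained 8. RLE scaling moved the median of all genes by at most 0.062. The interaction has no fit with 2 compared groups alone. Depth limits Itga10, Itga11, Itgal, Itgax, Itgb7 and Itgae, at which a difference may not be detectable. The causes of lost calls were not tested.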
